A study of Macaca mulatta with 21 samples.

Results

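Serine, glycine and one-carbon metabolism was read here from 6 genes of a panel of 9 (PHGDH, PSAT1, PSPH, SHMT1, SHMT2, MTHFD1, MTHFD2, TYMS and GLDC). Members were chosen by gene symbol: every probe set that the platform annotation gives one of the 9 symbols was kept, which left 10 probe sets of 52865 on the array. PHGDH, MTHFD1 and GLDC had 1 probe set each, SHMT1 and SHMT2 had 2 each, and TYMS had 3. The probe sets read were MmugDNA.15700.1.S1_s_at for PHGDH, MmugDNA.10860.1.S1_s_at for SHMT1, MmugDNA.14776.1.S1_at for SHMT2, MmugDNA.13654.1.S1_at for MTHFD1, MmuSTS.4685.1.S1_at for TYMS and MmugDNA.15485.1.S1_at for GLDC. PSAT1, PSPH and MTHFD2 were not analysed here. Rhesus macaque RNA was hybridised to 21 Affymetrix arrays. Each of the 7 lines had 3 arrays, lettered A, B and C. The cloned lines CRES-3 (female) and CRES-1 (male) are embryonic stem cells whose blastocysts were made by nuclear transfer from somatic cells. The induced lines were reprogrammed with retroviral OCT4, SOX2, Klf4 and cMYC. RiPS1 is male and began as fetal skin fibroblasts, RiPS2 is from a 10-year-old female and RiPS3 from a female of 8 years. The male line ORMES23 is of embryonic stem cells whose blastocyst came from in vitro fertilisation, and the somatic cells are skin fibroblasts of an adult female aged 8 years. Each line is a single derivation, so a difference between lines cannot be told apart from a difference between their donors, and p-values measure only the spread between arrays of these lines. All cultures, fibroblasts included, were grown on growth-arrested mouse embryonic fibroblast feeders. Stem cell medium held nonessential amino acids and more serum than the fibroblast medium, so the medium cannot be told apart from the cell type in any comparison with fibroblasts. The stem cell colonies were picked by hand, whereas the fibroblasts were harvested with trypsin.

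PHGDH, phosphoglycerate dehydrogenase, starts the synthesis of serine from a glycolytic intermediate. Serine hydroxymethyltransferases, SHMT1 in the cytosol and SHMT2 in mitochondria, turn serine into glycine and pass a one-carbon unit to tetrahydrofolate. MTHFD1 interconverts the cytosolic folate forms that feed purine synthesis, and TYMS uses methylene-tetrahydrofolate to make thymidylate for DNA. GLDC is the decarboxylase of the mitochondrial glycine cleavage system, which as a whole releases a further one-carbon unit from glycine. Dividing cells draw on these reactions for nucleotides, and the methionine cycle draws on them for methyl groups.

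The values are log2 intensities summarised per probe set by the authors with RMA, and they ran over 2.09 to 14.7 with array medians of 4.98 to 5.14. For a gene with several probe sets the brightest was used. All 6 genes lay at or above a log2 value of 5 on all 21 arrays and passed the low-value filter, as did 11142 of 14132 genes. The labels of the cell types were checked on marker genes. The 9 measured pluripotency markers averaged 9.44 to 9.95 on the 18 pluripotent arrays and 4.02 to 4.27 on the fibroblast arrays, where each of the 9 had a mean under 5. The 13 measured fibroblast markers averaged 6.52 to 7.32 on the pluripotent arrays and 10.06 to 10.16 on the fibroblast arrays, and their summed linear level was 2788 to 9154 on the pluripotent arrays, against 48841 to 50392 on the fibroblast arrays. PRRX1, FAP, LUM and TWIST2 among them had means under 5 in every pluripotent line, TWIST2 in the fibroblasts as well. ZFP42 and CDH1 were the pluripotency markers with means under 5 in some of the pluripotent lines. Markers of differentiated derivatives (10 of 10 measured) averaged 5.40 to 7.58 on the pluripotent arrays and 5.52 to 5.65 on the fibroblast arrays. Among the pluripotent lines their line mean ran from 5.86 in CRES-3 to 7.27 in ORMES23. On ORMES23 arrays A, B and C they averaged 7.58, 7.32 and 6.90, with summed linear levels of 7024, 2375 and 1793. The part of other cells in the results was not tested.

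SHMT1 and GLDC were higher in all 6 pluripotent lines than in the fibroblasts, MTHFD1 was higher in 5 of the 6 lines, and PHGDH was higher in CRES-3 and RiPS1. SHMT2 moved the other way and was lower in RiPS3 and ORMES23 than in the fibroblasts. TYMS was called in no line. A call needed at least a 2-fold difference and an adjusted p under 0.05 from limma, with Benjamini-Hochberg adjustment over 11142 genes. In CRES-3, 4 of the 6 members were called, all higher, against 33.3% of all tested genes called in either direction and 19.1% called higher. The count was 3 of 6 in CRES-1 (all higher; 30.6% of all genes called and 16.4% higher), 4 of 6 in RiPS1 (all higher; 32.8% and 19.3%) and 2 of 6 in RiPS2 (both higher; 31.8% and 17.2%). RiPS3 had 3 members higher and 1 lower (32.5% of all genes called, 18.3% higher and 14.2% lower), and ORMES23 also had 3 higher and 1 lower (32.6%, 18.5% and 14.1%). The median difference of the 6 members lay between 0.95 in RiPS2 and 1.13 in CRES-3 on the log2 scale, against medians of 0.02 to 0.05 over all tested genes. About 1 in 3 genes was called in each of these comparisons, and all 6 comparisons share the same 3 fibroblast arrays. In RNA from whole cultures, fewer cells of a type and less RNA per cell cannot be told apart.

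**Figure D1:**
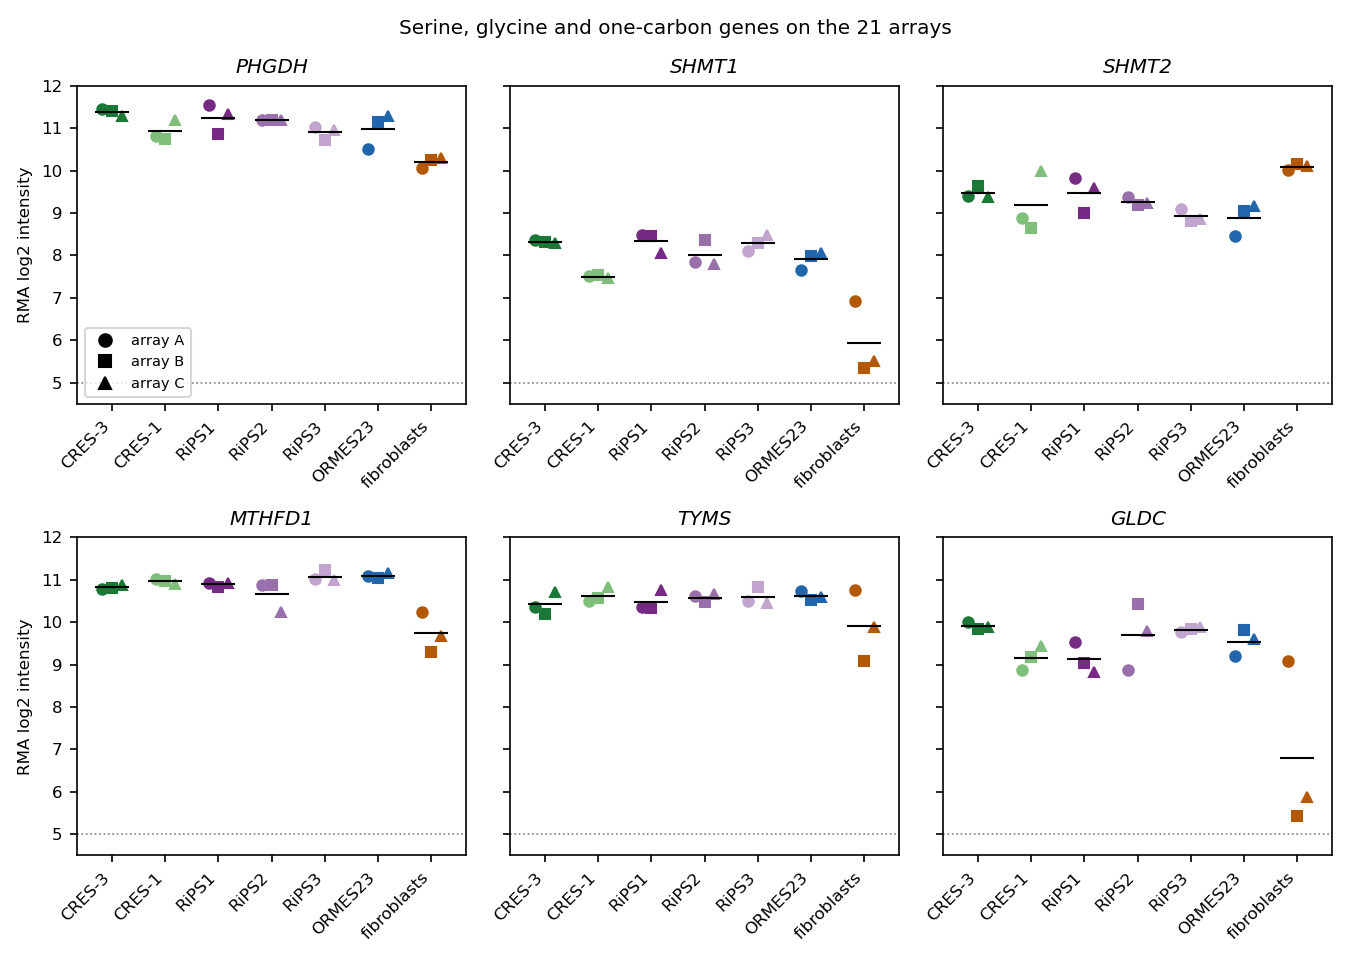
The log2 level of each member gene is plotted for every array by line, with circles, squares and triangles for arrays A, B and C, short bars for line means and a dotted line at the filter level of 5. GLDC and SHMT1 lie lowest on fibroblast arrays B and C, SHMT2 lies at or above 10.0 on all 3 fibroblast arrays, and GLDC on fibroblast array A (9.08) sits within the range of the pluripotent arrays.

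PHGDH was 1.62-fold to 2.26-fold higher in the pluripotent lines than in the fibroblasts, with 2 of the 6 lines past the 2-fold threshold. Its log2 level was 11.45, 11.41 and 11.29 on the CRES-3 arrays, 11.55, 10.88 and 11.33 on the RiPS1 arrays, and 10.08, 10.26 and 10.30 on the fibroblast arrays. It lay between 10.50 and 11.28 on the arrays of the other 4 pluripotent lines. No pluripotent array fell as low as any fibroblast array. The difference was 1.17 in CRES-3 (SE 0.19, 2.26-fold) and 1.04 in RiPS1. In the other lines it was 0.98 (RiPS2), 0.76 (ORMES23), 0.72 (CRES-1) and 0.69 (RiPS3), with an adjusted p of at most 0.0035 from limma in all 6 lines but less than a 2-fold difference in these 4. The number of lines past the 2-fold threshold was 1 without fibroblast array A and 3 without array B or without array C.

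SHMT1, the cytosolic hydroxymethyltransferase, was 2.97-fold to 5.30-fold higher in the pluripotent lines. Its log2 level was 8.36, 8.32 and 8.28 in CRES-3, 7.52, 7.53 and 7.46 in CRES-1, and 8.49, 8.46 and 8.05 in RiPS1. It was 7.85, 8.37 and 7.80 in RiPS2, 8.12, 8.30 and 8.49 in RiPS3, and 7.67, 7.99 and 8.07 in ORMES23, against 6.94, 5.34 and 5.52 in the fibroblasts. All 18 pluripotent arrays lay above the 3 fibroblast arrays, of which array A stood highest. The log2 difference was 2.39 in CRES-3, 1.57 in CRES-1, 2.40 in RiPS1, 2.08 in RiPS2, 2.37 in RiPS3 and 1.98 in ORMES23 (SE 0.29 each), and limma's adjusted p was at most 0.000122. The second SHMT1 probe set was also called higher in all 6 lines, by 1.03 to 2.16 on the log2 scale, and its values correlated with those of the first (r = 0.961 over 21 arrays, r = 0.869 over the 18 pluripotent arrays). The name of the brighter SHMT1 probe set, like that of the PHGDH probe set, ends in _s_at, which on Affymetrix arrays marks probes that several transcripts can share.

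SHMT2, the mitochondrial enzyme of the same reaction, was called lower in RiPS3 and ORMES23, by 2.25-fold and 2.30-fold, and its mean in the other 4 lines also lay below that of the fibroblasts. Its log2 level was 9.10, 8.81 and 8.87 in RiPS3, 8.46, 9.04 and 9.17 in ORMES23, and 10.01, 10.15 and 10.12 in the fibroblasts. On the other 12 pluripotent arrays it lay between 8.65 and 10.00, the highest of these being CRES-1 array C, so the groups did not overlap. The difference passed both thresholds in RiPS3 (log2 difference -1.17, SE 0.27, limma adjusted p = 0.00113) and in ORMES23 (-1.20, adjusted p = 0.000888). Without ORMES23 array A the difference in ORMES23 was -0.99 and missed the 2-fold threshold. In the other lines it was -0.62 in CRES-3 (adjusted p = 0.0543), -0.91 in CRES-1 (0.00764), -0.62 in RiPS1 (0.0531) and -0.82 in RiPS2 (0.0141). The second SHMT2 probe set was called lower in the same 2 lines, by 1.18 in RiPS3 and 1.04 in ORMES23, and correlated with the first at r = 0.955 over 21 arrays. The 2 hydroxymethyltransferases thus lay on opposite sides of the fibroblasts in all 6 lines, although SHMT2 was called in only 2 of them.

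**Figure D2:**
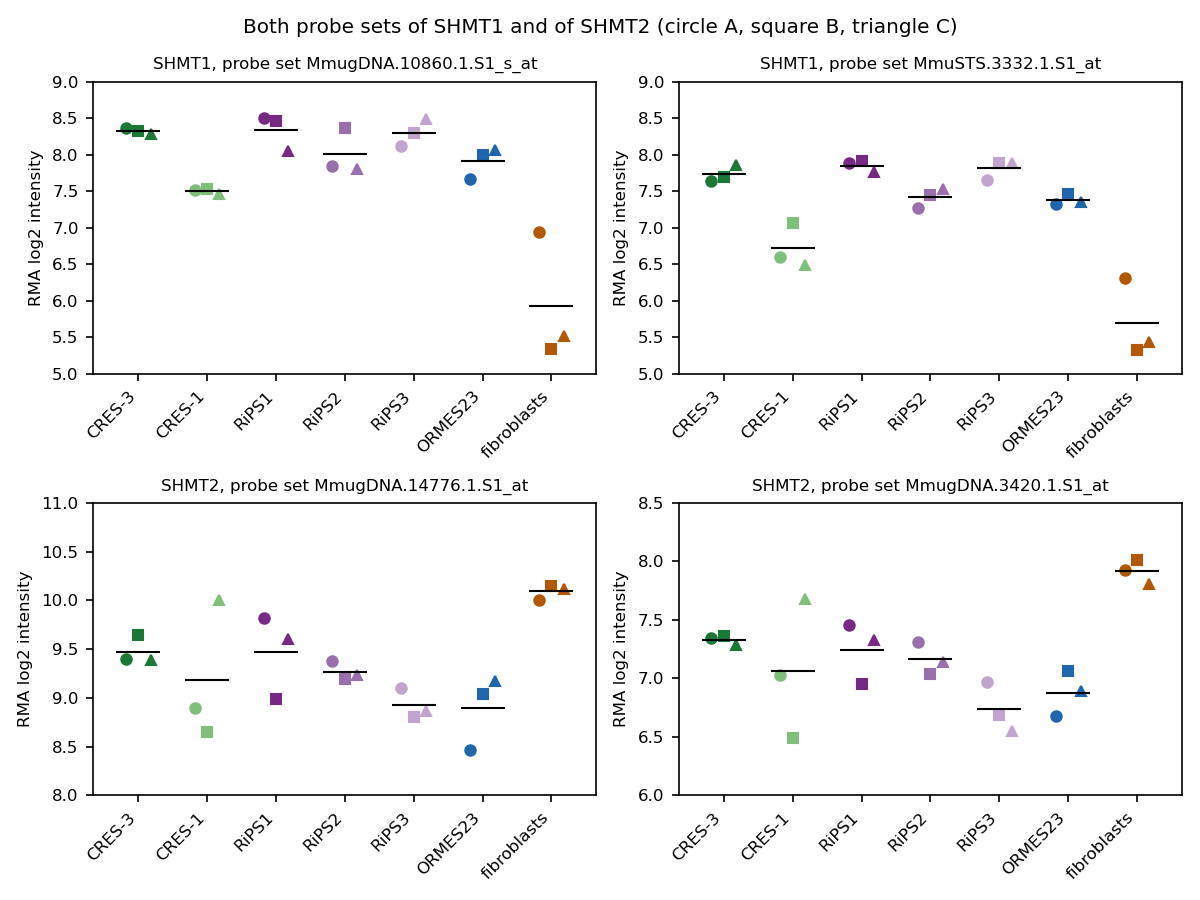
The log2 level of the brighter (left) and the second probe set (right) of SHMT1 and of SHMT2 is plotted for every array by line, with circles, squares and triangles for arrays A, B and C and bars for line means. On both SHMT1 probe sets the fibroblasts are lowest and CRES-1 is lowest among the pluripotent lines, and on both SHMT2 probe sets the 3 fibroblast arrays lie above all pluripotent arrays.

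MTHFD1 was 1.90-fold to 2.56-fold higher in the pluripotent lines. Its log2 level lay between 10.24 and 11.23 on the 18 pluripotent arrays, with a median of 10.93, against 10.23, 9.30 and 9.68 in the fibroblasts. The lowest pluripotent value, 10.24 on RiPS2 array C, was just above fibroblast array A. The log2 difference was 1.09 in CRES-3, 1.22 in CRES-1, 1.16 in RiPS1, 1.34 in RiPS3 and 1.35 in ORMES23 (SE 0.19), all called, and 0.92 in RiPS2 (limma adjusted p = 0.000313), which missed the 2-fold threshold. MTHFD1 was called in 3 lines without fibroblast array B and in 6 lines without array A.

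TYMS, thymidylate synthase, was 10.35, 10.19 and 10.72 in CRES-3, 10.50, 10.56 and 10.83 in CRES-1, and 10.75, 9.09 and 9.90 in the fibroblasts. It lay between 10.35 and 10.83 on the arrays of the other 4 pluripotent lines. Fibroblast array A was as high as the pluripotent arrays and array B was the lowest of the 21, so the groups overlapped in every comparison. The log2 difference was 0.51 to 0.72 (SE 0.27, limma adjusted p of 0.0317 to 0.113). Without fibroblast array A it was 0.93 to 1.14 and was called in 4 lines (CRES-1, RiPS2, RiPS3 and ORMES23), and without array B it was 0.10 to 0.31. The second TYMS probe set followed the first (r = 0.952 over 21 arrays) with 9.94, 8.14 and 9.09 in the fibroblasts. The third lay between 4.45 and 5.25 and did not follow it (r = -0.13).

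GLDC had the widest difference of the 6 members, 5.08-fold to 8.64-fold higher in the pluripotent lines. Its log2 level was 10.00, 9.84 and 9.88 in CRES-3, 8.87, 9.18 and 9.45 in CRES-1, and 9.54, 9.04 and 8.84 in RiPS1. It was 8.87, 10.43 and 9.79 in RiPS2, 9.77, 9.83 and 9.88 in RiPS3, and 9.19, 9.81 and 9.60 in ORMES23, against 9.08, 5.43 and 5.88 in the fibroblasts. Fibroblast arrays B and C lay near the filter level, while array A lay inside the range of CRES-1, RiPS1 and RiPS2 and below every array of CRES-3, RiPS3 and ORMES23. The log2 difference was 3.11 in CRES-3, 2.37 in CRES-1, 2.34 in RiPS1, 2.91 in RiPS2, 3.03 in RiPS3 and 2.74 in ORMES23 (SE 0.62, limma adjusted p of 0.000256 to 0.00295). Without fibroblast array A it was 3.49 to 4.25 (11.2-fold to 19.1-fold, adjusted p of at most 7.80e-08). Without array B it was 1.66 to 2.43 (adjusted p of at most 0.0248), and GLDC was called in all 6 lines either way. When only the 2 lines compared were fitted, GLDC missed the threshold in CRES-1 (limma adjusted p = 0.0601) and RiPS1 (0.0564) at the same log2 differences.

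**Figure D3:**
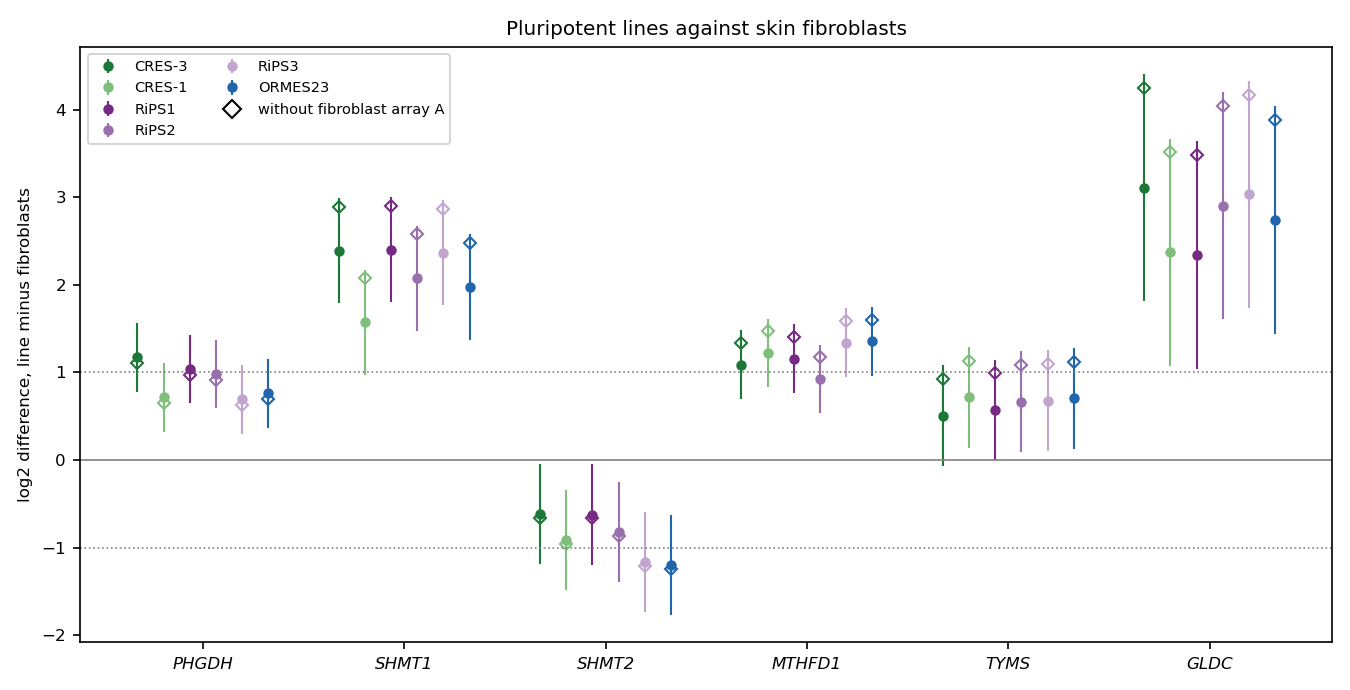
For each member the log2 difference of each pluripotent line from the fibroblasts is plotted with its 95% confidence interval, with open diamonds for the difference without fibroblast array A and dotted lines at a 2-fold difference either way. GLDC and SHMT1 lie beyond the upper line in all 6 lines, SHMT2 lies below 0 in all 6, and leaving out array A moves GLDC, SHMT1, MTHFD1 and TYMS upward.

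The fibroblast arrays differed among themselves in several of these genes. Array A exceeded the mean of arrays B and C by 3.42 for GLDC, 1.51 for SHMT1, 1.26 for TYMS and 0.74 for MTHFD1 on the log2 scale, and it was lower by 0.20 for PHGDH and by 0.13 for SHMT2. Of the 11142 genes tested, 1 had a larger excess on array A than GLDC. Array A was at least 2-fold above both other fibroblast arrays for 2 of the 6 members, GLDC and SHMT1, against 242 genes or 2.17% of all. A list of 15 measured cell cycle genes, which holds none of the members, averaged 10.34 to 10.77 on the 18 pluripotent arrays, against 9.86, 7.64 and 8.83 on fibroblast arrays A, B and C. Of these 15 genes, 13 or 14 were called higher in each pluripotent line than in the fibroblasts, against 16.4% to 19.3% of all genes. Without array A the count was 13 to 15, where 3413 to 3733 of all genes were called in either direction. The log2 difference between the 3' and 5' actin control probe sets, a sign of RNA quality, was 0.58 to 2.17 on the pluripotent arrays and 0.02, 0.99 and 0.46 on fibroblast arrays A, B and C, so that array A had the smallest of the 21. GLDC, SHMT1, TYMS and MTHFD1 were thus highest on the fibroblast array with the highest cell cycle mean. Within the pluripotent lines, deviations of these genes from their line means were also set against those of the cell cycle mean. Over the 18 arrays r was 0.07 for GLDC, -0.09 for SHMT1, 0.17 for TYMS and -0.27 for MTHFD1. The part of the cell cycle genes' level or of RNA quality in the differences from fibroblasts was not tested.

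**Figure D4:**
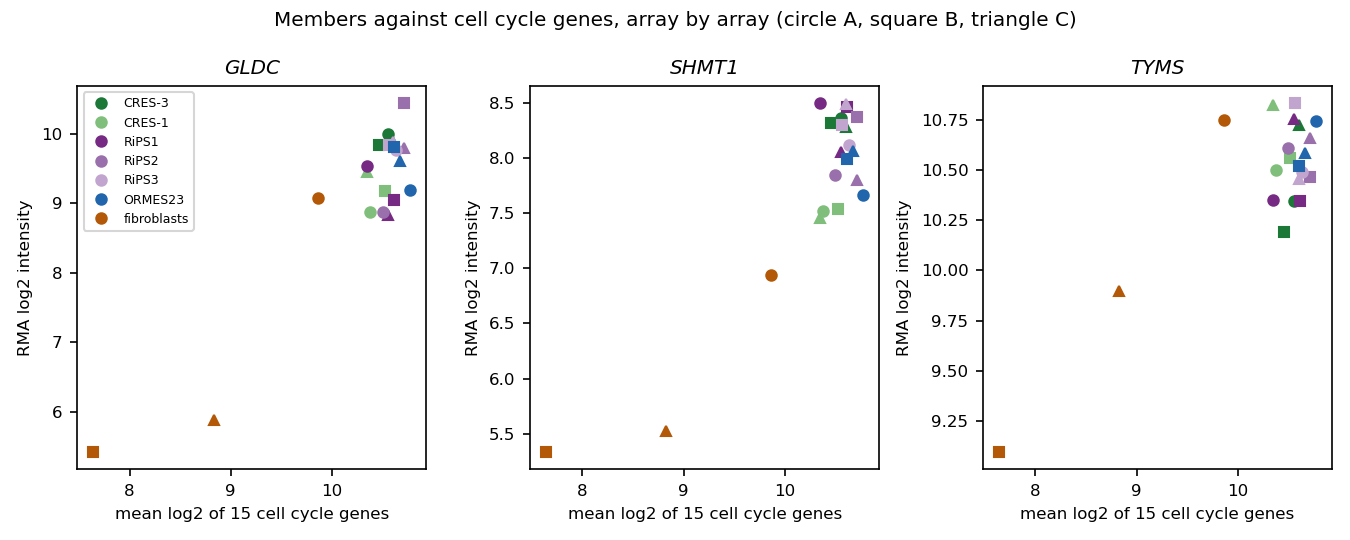
The log2 levels of GLDC, SHMT1 and TYMS on each array are plotted against the mean log2 level of 15 cell cycle genes on that array, coloured by line, with circles, squares and triangles for arrays A, B and C. The pluripotent arrays form a narrow band at 10.34 to 10.77 on the horizontal axis, and the fibroblast arrays lie at 9.86 (A), 7.64 (B) and 8.83 (C), with all 3 genes highest on array A and lowest on array B.

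Of 49 further genes of the pathway listed with the members (transport, glycine cleavage, folate forms, purine synthesis, methionine cycle and regulators), 37 were on the array and 32 passed the filter. In each pluripotent line 4 or 5 of the 32 were called higher than in the fibroblasts and 2 to 4 lower. The counts were 4 and 3 in CRES-3, 5 and 2 in CRES-1, 5 and 3 in RiPS1, 5 and 3 in RiPS2, 5 and 2 in RiPS3, and 4 and 4 in ORMES23. As shares they were no larger than those of all tested genes, of which 14.2% were called lower in CRES-3, CRES-1 and RiPS3, 13.5% in RiPS1, 14.6% in RiPS2 and 14.1% in ORMES23. The median difference of the 32 genes was -0.08 to 0.25. Called higher in all 6 lines were AMT, PPAT and PFAS, 3 of 32 genes against 12.7% of all genes, and called lower in all 6 were SLC1A4 and ALDH1L2 (10.5% of all genes). ALDH1L2 passed the low-value filter only through the 3 fibroblast arrays, so it had to be lower in the pluripotent lines, and it stands in each count of lower genes given here.

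AMT, the aminomethyltransferase that works with GLDC in glycine cleavage, was 8.91, 8.58 and 8.53 in CRES-3 and 7.35 to 8.93 on all pluripotent arrays, against 6.89, 6.42 and 5.95 in the fibroblasts. Its log2 difference was 1.45 to 2.25 (limma adjusted p of at most 0.000203). DLD, the dihydrolipoamide dehydrogenase shared by glycine cleavage and other complexes, was called in no line, with differences of -0.47 to 0.07. PPAT, which commits phosphoribosyl pyrophosphate to purine synthesis, averaged 9.34 on the pluripotent arrays and 6.59 on the fibroblast arrays, with no overlap and a log2 difference of 2.46 to 2.98. PFAS, a later enzyme of the same pathway, averaged 8.66 on the pluripotent arrays and was 6.50, 5.37 and 5.64 in the fibroblasts, a difference of 2.55 to 3.16. GART, ADSL and ATIC, the other 3 measured enzymes of that pathway, were called in no line. Their log2 differences were 0.45 to 0.88 for GART, -0.46 to 0.52 for ADSL and 0.27 to 0.55 for ATIC. At the 2-fold threshold, 2 of the 5 measured purine synthesis genes were thus called higher in all 6 lines, against 12.7% of all genes. GART and ATIC also had higher means in all 6 lines, by less than 2-fold.

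SLC1A4, a transporter of serine, alanine and other small neutral amino acids, was 6.89, 7.22 and 7.25 in CRES-3 and 5.58 to 7.71 on all pluripotent arrays, against 9.57, 10.73 and 10.44 in the fibroblasts. Its log2 difference was -3.88 to -3.13 (limma adjusted p of at most 2.99e-06), in the opposite direction to AMT. ALDH1L2, the mitochondrial enzyme that oxidises formyl-tetrahydrofolate, was under 5 on all 18 pluripotent arrays and 5.90, 6.64 and 6.59 in the fibroblasts, which gives a level at least 2.59-fold lower in the pluripotent lines when their level is set to the filter value. ATF4, the transcription factor known to drive PHGDH and SHMT2 in mammalian cells, was called in no line, with differences of -0.10 to 0.21. Threonine dehydrogenase, TDH, which supplies glycine in mouse embryonic stem cells, did not reach 5 on any of the 21 arrays (highest 4.19). A further 6 genes were called in some lines and are named after their values were seen. AHCY, which clears adenosylhomocysteine, was higher in 5 lines (0.96 to 1.22 over all 6) but in 1 line without fibroblast array B. GNMT was higher in 3 lines (2 to 4 with a fibroblast array left out), and FOLR1 and SLC46A1 in 1 line each. GGH was lower in 3 lines, but in no line without fibroblast array A, where its differences ran between -0.99 and 0.51, and in 5 lines without array B. SLC1A5 was lower in 2 lines, in 4 without fibroblast array A and in 1 without array B or C.

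Among the 6 pluripotent lines, no member read from its brightest probe set was called in any of 11 comparisons with limma. Not every pair of these lines was compared. Of the 66 differences, 9 had an unadjusted limma p under 0.05. The 11 comparisons share arrays, so the 66 are not independent. The share of all genes under that level was not computed, so the 9 are a description only. In the comparisons with the fertilised line ORMES23, 0 of 6 members were called in CRES-3 (0.996% of all genes called), CRES-1 (0%), RiPS1 (2.40%), RiPS2 (0.458%) and RiPS3 (0.772%). The cloned lines against the induced line of the same sex also gave 0 of 6, for CRES-1 against RiPS1 (2.14% of all genes) and CRES-3 against RiPS3 (0.0359%). The count was again 0 of 6 for CRES-3 against CRES-1 (2.61%), RiPS1 against RiPS2 (3.61%), RiPS1 against RiPS3 (2.44%) and RiPS2 against RiPS3 (1.18%). An F test over the 6 lines was passed by 0 of 6 members at an adjusted p under 0.05, against 17.1% of all genes, with adjusted p of 0.169 for SHMT1, 0.222 for PHGDH, 0.329 for SHMT2, 0.392 for MTHFD1, 0.808 for GLDC and 0.979 for TYMS. The unadjusted F test was passed by 0 members as well. Few genes were called in these comparisons, so a count of 0 among 6 is close to the background.

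The widths of the intervals differed by gene. For TYMS the 11 log2 differences ran between -0.21 and 0.15, for MTHFD1 between -0.43 and 0.23, for PHGDH between -0.32 and 0.48, and for SHMT2 between -0.29 and 0.58. For GLDC they ran between -0.69 and 0.74, with 95% confidence limits that reached -1.99 and 2.04. These limits include the spread of the fibroblast arrays, and with the pluripotent arrays alone, an alternative added after the values were seen, they reached -1.32 and 1.36 (SE 0.29). GLDC was called in none of the 11 comparisons in that fit either. By line mean, GLDC stood at 9.90 in CRES-3, 9.83 in RiPS3, 9.70 in RiPS2, 9.54 in ORMES23, 9.17 in CRES-1 and 9.14 in RiPS1. PHGDH stood at 11.39 in CRES-3, 11.25 in RiPS1, 11.19 in RiPS2, 10.97 in ORMES23, 10.93 in CRES-1 and 10.91 in RiPS3. MTHFD1 was 11.09 in ORMES23, 11.08 in RiPS3, 10.96 in CRES-1, 10.90 in RiPS1, 10.83 in CRES-3 and 10.66 in RiPS2. Neighbours in these orders overlapped in array values, and the only gaps in the 3 orders lay between the pluripotent lines and the fibroblasts, for PHGDH and MTHFD1.

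SHMT1 was the member with the clearest step among the pluripotent lines. Its line means were 8.34 in RiPS1, 8.32 in CRES-3, 8.30 in RiPS3, 8.01 in RiPS2, 7.91 in ORMES23 and 7.50 in CRES-1, and all 3 CRES-1 arrays lay below the other 15 pluripotent arrays. Of all tested genes, 1.02% had all CRES-1 arrays below the other 15, and 0.422% had all of them above. CRES-1 differed from RiPS1 by -0.83 on the log2 scale (SE 0.29, limma adjusted p = 0.0921), and CRES-3 differed from CRES-1 by 0.82 (adjusted p = 0.0856). The second probe set also placed CRES-1 lowest, with 7.63, 7.69 and 7.86 in CRES-3, 6.60, 7.06 and 6.49 in CRES-1, and 7.88, 7.91 and 7.76 in RiPS1. Read from that probe set, in a fit over all probe sets that was added after the values were seen, the difference was -1.13 between CRES-1 and RiPS1 (SE 0.20, limma adjusted p = 0.00195, 2.05% of probe sets called) and 1.01 between CRES-3 and CRES-1 (adjusted p = 0.00478, 3.23% called). With the pluripotent arrays alone, also added afterwards, the brighter probe set gave adjusted p of 0.00391 and 0.00639 for the same 2 differences, each under 2-fold, since the SE was 0.16 without the spread of the fibroblast arrays. The 2 comparisons share the CRES-1 arrays. The genes whose log2 values followed SHMT1 most closely over the 18 pluripotent arrays, among 11141 others, were METTL22 (r = 0.94), COQ4 (r = 0.93) and FECH (r = 0.92). These correlations over arrays of 6 lines are descriptions and have no p.

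In the wider pathway list, 2 differences between pluripotent lines were called. GGH, the hydrolase that shortens polyglutamated folates, was 6.20, 6.41 and 6.27 in RiPS1, against 4.74, 4.75 and 4.90 in RiPS2 (log2 difference 1.50, limma adjusted p = 0.00499). As the RiPS2 arrays lay under the filter value of 5, the level in RiPS1 was at least 2.45-fold higher. SLC46A1, the proton-coupled folate transporter, was 6.55, 6.37 and 7.16 in CRES-1, against 5.35, 4.66 and 5.78 in RiPS1 (difference 1.43, adjusted p = 0.00664). Neither pair of groups overlapped.

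Within the pluripotent lines, PHGDH and SHMT2 varied together from array to array. When each array was expressed as its deviation from the mean of its own line, the deviations of PHGDH and SHMT2 correlated at r = 0.852 (Spearman rho 0.901) over 18 arrays, and at r = 0.827 without ORMES23 array A and RiPS1 array B. By this measure PHGDH ranked 24 among 11141 genes by closeness to SHMT2. With the second SHMT2 probe set the correlation was 0.684. ORMES23 array A was low in both genes, by -0.47 for PHGDH and -0.43 for SHMT2, RiPS1 array B was low by -0.37 and -0.48, and CRES-1 array C was high by 0.27 and 0.82. Over the undivided log2 levels of the same 18 arrays, the genes that followed PHGDH most closely were LOC700836 (r = 0.88), SHMT2 (r = 0.86) and RPL7L1 (r = 0.84), and those that followed SHMT2 were TRIB3 (r = 0.90), PHGDH (r = 0.86) and PCDHA5 (r = 0.83). TRIB3, a pseudokinase known as a target of ATF4, deviated with SHMT2 at r = 0.915 and with PHGDH at r = 0.769 (rank 131). ATF4 itself, which differed little between lines, deviated with SHMT2 at r = 0.865 and with PHGDH at r = 0.862 (ranks of 20 among 11141 genes for each). Without RiPS1 array B and CRES-1 array C these values were 0.889 and 0.811. MYC, the other regulator on the pathway list, deviated with SHMT2 at r = 0.650 and with PHGDH at r = 0.585. The mean of the cell cycle genes deviated the other way, at r = -0.645 with SHMT2 and r = -0.587 with PHGDH. The actin 3' minus 5' difference also deviated the other way, at r = -0.612 (Spearman rho -0.771) with PHGDH. With SHMT2 the value was r = -0.353 (rho -0.579), and with ATF4 r = -0.410 (rho -0.449). The actin difference was 1.64, 0.85 and 0.79 on ORMES23 arrays A, B and C, and 0.92, 1.47 and 1.15 on those of RiPS1. In these lines it was highest on the array that was low in both PHGDH and SHMT2. On CRES-1 arrays A, B and C it was 1.12, 1.14 and 1.07, a narrow range, with both genes lowest on array B and highest on array C. On RiPS3 arrays A, B and C it was 1.02, 1.04 and 0.92, with both genes lowest on array B. It was 0.58, 1.26 and 2.17 on CRES-3 arrays A, B and C, and array C, the lowest of its line in both genes, deviated by -0.09 in each. In RiPS2 it was highest on array A (1.06), where SHMT2 deviated by 0.11. In each of the other pluripotent lines the array with the largest actin difference was the lowest in both genes. The part of RNA quality or of the cell cycle genes' level in these correlations was not tested. The 18 points come from 6 lines, so the correlations are descriptions without a p.

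**Figure D5:**
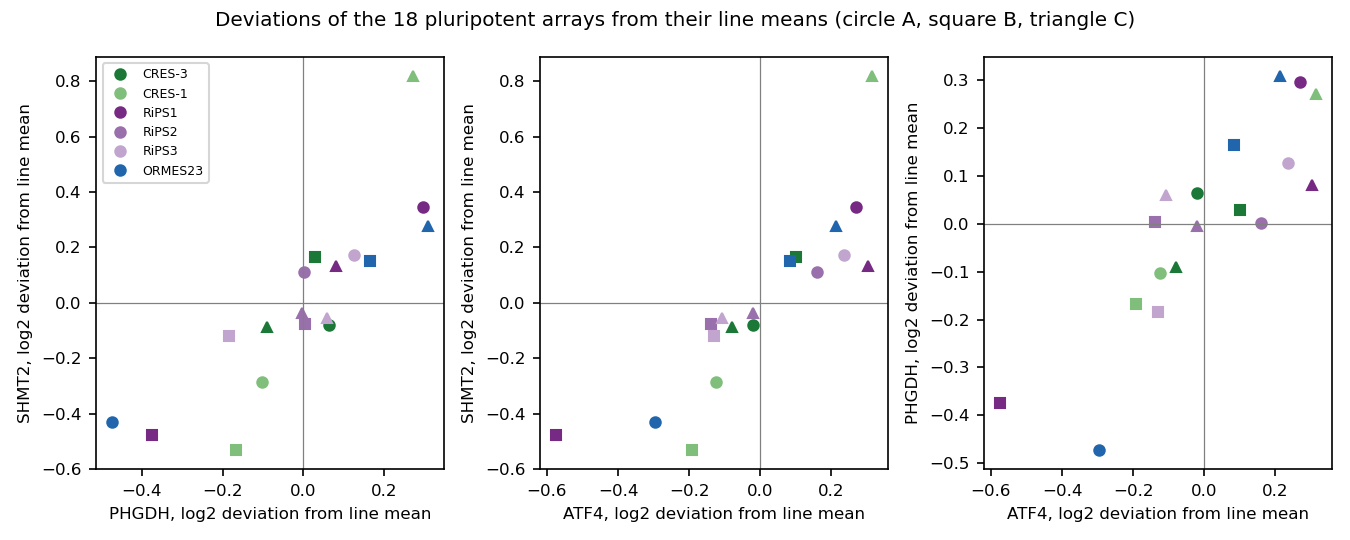
Deviations of the 18 pluripotent arrays from the mean of their own line are plotted on the log2 scale for SHMT2 against PHGDH, SHMT2 against ATF4 and PHGDH against ATF4, coloured by line, with circles, squares and triangles for arrays A, B and C. RiPS1 array B and ORMES23 array A lie at the lower left of all 3 panels, and CRES-1 array C is highest in SHMT2 at 0.82.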

How the data were processed

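Affymetrix rhesus macaque arrays (21, with 3 per line) were measured. The authors deposited RMA values, on the log2 intensity scale, for each probe set, per the submitters' processing notes, with the version and probe set definitions not given in the sources used here. Gene symbols came from the platform annotation: 24956 probe sets had 1 symbol, 361 had several and 27548 had none or were controls, and only those with 1 symbol were named. Where several probe sets named a gene, the brightest on average stood for it. Genes at or above log2 5 on at least 3 arrays were kept (11142 of 14132). One linear model with a mean per line was fitted over all 21 arrays (14 residual degrees of freedom) with limma 3.58.1 in R 4.3.3, moderated by eBayes and adjusted with Benjamini-Hochberg over all genes kept, for 17 comparisons between lines and an F test over the 6 pluripotent lines. The procedure was tested on simulated data. No array duplicated another (highest correlation 0.996). The replicate letters do not pair the arrays: same-lettered arrays of different lines had correlated deviations of -0.41 to 0.44, and 20 of 63 exceeded 0.1. The number of arrays limits the precision, and no sequencing depth applies.

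The member genes, the pathway list, the marker lists and the tests were chosen with earlier results of these data known. Named outside the members are pathway genes called in the same direction in all 6 pluripotent lines or between 2 pluripotent lines, a few fixed pathway genes (AMT, DLD, TDH and ATF4), and the 3 genes with the highest Pearson correlation over the 18 pluripotent arrays for SHMT1, PHGDH and SHMT2. AHCY, GNMT, FOLR1, SLC1A5, MYC and, within lines, SLC1A4 with SHMT2 were named outside this rule, after their values were seen. So were the calls of GGH and SLC46A1 against the fibroblasts. Alternatives were other filters, scalings, probe set rules, array weights, subsets of lines, a replicate block and leaving out each array.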

Additional observations from a re-analysis of the deposited data

How the results depend on the processing

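With 3 arrays per line, 1 array can set a line mean and its error: without fibroblast array A, the SE against the fibroblasts was 0.33 in place of 0.62 for GLDC and 0.18 in place of 0.29 for SHMT1. Of 266 alternatives for the number of members called in 17 comparisons, 265 kept it within 1.5 times, and 1 moved it: without fibroblast array A, RiPS2 had 4 members called against the fibroblasts in place of 2. Over the arrays left out in turn, that count ran from 2 to 4. In the 11 comparisons between pluripotent lines, where few genes were called at all, the count was 0 in every setting. Those alternatives could hardly move it. A count kept within 1.5 times can also hold other members. Alternatives were also read for 29 member differences. These were the ones called in the main fit, TYMS against the fibroblasts, and SHMT1 for CRES-1 against RiPS1 and CRES-3 against CRES-1. Of 437 alternatives for the 29, 0 reversed a direction, 9 lost a call and 4 gained one (TYMS without fibroblast array A). Outside the 29, calls were gained in RiPS2 by MTHFD1 without fibroblast array A (1.17) and by PHGDH without fibroblast array B (1.01) or C (1.03). The 9 losses were GLDC in CRES-1 and RiPS1 with only the 2 lines compared, MTHFD1 in CRES-3 (0.87) and RiPS1 (0.94) without fibroblast array B, SHMT2 in ORMES23 without ORMES23 array A (-0.99), and PHGDH in RiPS1 with array weights (0.93) and without RiPS1 array A (0.89), RiPS1 array C (1.00) or fibroblast array A (0.97). The number of members that differed among the 6 pluripotent lines in the F test, 0 in the main setting, was 1 with the mean of a gene's probe sets (SHMT1), 3 with array weights (PHGDH, SHMT1 and MTHFD1), and 1 with the pluripotent arrays only (SHMT1), an alternative chosen after seeing the data. Over the arrays left out in turn it ran from 0 to 1, being 1 without CRES-1 array C (SHMT2) and 1 without fibroblast array A (SHMT1). The cause of these changes was not tested. With a replicate block on the letters, which do not pair the arrays, 4 members were called in ORMES23 against the fibroblasts, as without it, and the block changed no other count of members called. No scaling moved the median difference of all genes by over 0.1. The counts over all genes between pluripotent lines varied more. With array weights, 157 genes in place of 0 were called for CRES-1 against ORMES23, 361 in place of 111 for CRES-3 against ORMES23, 434 in place of 267 for RiPS1 against ORMES23, 113 in place of 51 for RiPS2 against ORMES23, 257 in place of 86 for RiPS3 against ORMES23, 34 in place of 4 for CRES-3 against RiPS3, 459 in place of 291 for CRES-3 against CRES-1 and 297 in place of 131 for RiPS2 against RiPS3. With only the 2 lines compared, 10 in place of 51 were called for RiPS2 against ORMES23, 25 in place of 86 for RiPS3 against ORMES23, 48 in place of 131 for RiPS2 against RiPS3, 1 in place of 4 for CRES-3 against RiPS3 and 1 in place of 0 for CRES-1 against ORMES23. With arrays left out in turn, the counts ran from 0 to 40 for CRES-1 against ORMES23, 52 to 194 for CRES-3 against ORMES23, 27 to 74 for RiPS2 against ORMES23, 34 to 182 for RiPS3 against ORMES23, 1 to 20 for CRES-3 against RiPS3, 141 to 292 for CRES-3 against CRES-1 and 43 to 282 for RiPS2 against RiPS3.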

Other observations

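SLC1A4, the neutral amino acid transporter that was far lower in the pluripotent lines than in the fibroblasts, also varied between arrays of a line in step with SHMT2. Its within-line deviations correlated with those of SHMT2 at r = 0.938 over the 18 pluripotent arrays, the first rank of 11141 genes, and at 0.884 without RiPS1 array B and CRES-1 array C. On CRES-1 array C the deviations were 1.07 for SLC1A4, 1.73 for TRIB3 and 0.31 for ATF4, and on RiPS1 array B TRIB3 deviated by -1.83 and ATF4 by -0.57. This relation was looked at after the values were seen and is a description without a p.

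The difference between cloned and induced lines of the same sex was compared between male and female lines, in a contrast added after the values were seen. For PHGDH it was -0.32 in the male pair (CRES-1 minus RiPS1) and 0.48 in the female pair CRES-3 minus RiPS3, and the difference of the 2, -0.80 (SE 0.26), did not pass (limma adjusted p = 0.0900, the lowest of the 6 members). With RiPS2 as the female induced line the female difference was 0.19 and the contrast -0.52 (adjusted p = 0.190), and the lowest adjusted p of the 6 members was 0.0647, for SHMT1. The male side rests on 1 cloned and 1 induced line, and the female side on 1 cloned line.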
